A study of Mus musculus with 6 samples.

Results

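The 7 genes described here are Hp, Lrg1, Orm1, Orm2, Orm3, Steap4 and S100a8, a set of acute-phase genes of adipose tissue, out of 3162 genes held in the deposited tables. They were chosen by name with their fasted and fed values in these same libraries in view, so their differences between the groups are given as a description and carry no test. The libraries are bulk RNA sequencing of white adipose tissue around the epididymis of male C57BL/6J mice with the wild-type genotype, aged 16 weeks. One group of 3 mice was fasted for 24 h and the other group of 3 mice was fed normally. The labels name no other allele, transgene or agent in either group, and the comparison addresses how a short fast alters the transcriptome of this depot.

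The acute-phase response is the change in secreted plasma proteins that follows infection or injury, driven in the liver mainly by interleukin-6 acting through STAT3, by interleukin-1 and tumour necrosis factor acting through NF-kappa B, and by C/EBP factors and glucocorticoids. White adipose tissue also makes several of these proteins. Haptoglobin, encoded by Hp, binds haemoglobin freed from red cells, and the complex is cleared by macrophages. Orm1, Orm2 and Orm3 encode alpha-1-acid glycoproteins, plasma carriers of the lipocalin family. Lrg1 encodes a secreted leucine-rich glycoprotein that modulates TGF-beta signalling in blood vessels. Steap4 encodes a membrane metalloreductase of iron and copper that inflammatory cytokines induce in adipocytes. S100a8 encodes a subunit of calprotectin, a calcium-binding protein abundant in neutrophils.

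The 3 Orm genes are close copies that lie side by side on the plus strand of chromosome 4 (GRCm38), Orm1 at 63344560 to 63348163, Orm3 at 63356162 to 63359511 and Orm2 at 63362449 to 63365878. Their coding sequences were 89.9% identical between Orm1 and Orm2, 86.0% between Orm1 and Orm3, and 87.9% between Orm2 and Orm3. The first 60 coding bases of the GENCODE transcripts are shown because the 3 genes must be told apart by such differences, with the 8 bases of Orm2 and the 8 bases of Orm3 that differ from Orm1 in capitals. The stretches lie at chr4:63344598-63344657 for Orm1, chr4:63362487-63362546 for Orm2 and chr4:63356200-63356259 for Orm3.
Orm1: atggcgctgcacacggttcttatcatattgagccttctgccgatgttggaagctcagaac
Orm2: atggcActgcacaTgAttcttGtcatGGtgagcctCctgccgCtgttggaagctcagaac
Orm3: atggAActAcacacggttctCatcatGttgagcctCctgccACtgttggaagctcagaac
Of all windows of 50 bases in the coding transcript, 79.6% of those of Orm1, 77.3% of those of Orm2 and 96.4% of those of Orm3 were in no transcript of another gene. With windows of 100 bases the shares were 93.0% for Orm1, 93.0% for Orm2 and 100% for Orm3. Every window of 50 bases of Hp, Lrg1, Steap4 and S100a8 was in no other gene, and no annotated gene overlapped any of the 7. No source used here states the read length, so the values of the Orm genes, Orm2 above all, are uncertain.

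Promoter sequences from RefSeq (GRCm38.p6) were matched for 5 of the 7 genes, namely Lrg1, Orm2, Orm3, S100a8 and Steap4, each with 250 bases before and 50 bases after the start. The C/EBP motif TTGCNNAA, searched on both strands, was in 3 of these 5, against 10.8% of all 32851 promoters. The stretches that hold it are shown from 170 to 51 bases before the start, on the plus strand, with C/EBP and STAT matches in capitals, at chr4:63362279-63362398 for Orm2, chr4:63355988-63356107 for Orm3 and chr5:7960302-7960421 for Steap4.
Orm2: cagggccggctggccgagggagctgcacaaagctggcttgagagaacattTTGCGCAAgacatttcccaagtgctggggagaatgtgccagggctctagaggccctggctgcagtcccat
Orm3: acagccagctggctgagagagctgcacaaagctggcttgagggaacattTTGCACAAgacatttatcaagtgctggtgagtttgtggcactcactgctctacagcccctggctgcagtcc
Steap4: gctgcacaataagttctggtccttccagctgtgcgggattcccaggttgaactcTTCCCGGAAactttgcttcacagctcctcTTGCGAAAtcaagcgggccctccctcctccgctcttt
The Orm2 match TTGCGCAA begins 120 bases before the start and the Orm3 match TTGCACAA 121 bases before it, and these promoters were 86.2% identical, so the matches are not separate cases. Steap4 holds TTGCGAAA and, upstream of it, TTCCCGGAA, the only match among the 5 to the STAT motif TTCNNNGAA, which is in 8.30% of all promoters. The NF-kappa B motif GGNNNTTCC matched in Lrg1 and in Steap4 (18.5% of all promoters), where 1 match, GGTCCTTCC, lies in the stretch shown and is left in lower case, and the glucocorticoid receptor core ACANNNTGT matched in Orm3 and S100a8 (6.85%). A match is a description of the letters and does not show binding.

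The unit is FPKM, which divides the fragments of a gene by transcript length and by the mapped total. The deposited tables hold no read counts, so library depth is unknown. Summed FPKM over the genes held was 180058 to 209201 per library. Fasted and fed values did not overlap in 2953 of the 3162 genes (93.4%), so nearly every gene held separates the groups, and the sources used here leave unstated how these genes were selected. Of 18 adipocyte markers listed, 7 were held and tested, none of them at 0, and all 7 fell (limma on log2(FPKM + 1), Benjamini-Hochberg adjusted p under 0.05). By the same test 49.4% of the 2999 genes tested were called lower in fasted tissue and 41.1% higher. With so many genes called, adjustment over the genes held changes p-values little. Adjusted p-values given here therefore do not measure an error rate over the whole genome. The resistin gene Retn, 1 of the adipocyte markers, lost its call with median-ratio and with quantile scaling. The summed level of the markers was 3344 to 3929 FPKM in fasted libraries and 6067 to 7241 FPKM in fed libraries. Plin1, which encodes a lipid droplet coat protein, averaged 341 ± 120 FPKM in fasted and 741 ± 52.5 FPKM in fed tissue, and Lep, the leptin gene, averaged 12.8 ± 7.46 and 430.2 ± 229 FPKM (fasted, then fed; SD, n = 3 each). All 5 endothelial markers held, of 13 listed, rose, with a summed level of 358 to 525 FPKM in fasted libraries and 226 to 271 FPKM in fed libraries. The part of these shifts in the values of the 7 genes was not tested. Adipoq and Fabp4 were not analysed here. Nothing in the labels gives a batch.

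All 7 genes had a lower mean in fasted than in fed tissue, with ratios of the means from 0.102 to 0.240. In 6 of the 7, every fasted value lay below every fed value, which was also the case in 52.6% of the 2999 genes whose mean reached 1 FPKM, a filter that all 7 passed. As the rule used this contrast, nothing is read from that count. S100a8 averaged 0.53 FPKM in fasted and 5.19 FPKM in fed tissue. It passed the filter only through fed tissue, so it could not have entered as a rise. In log2(FPKM + 1), a scale on which differences of low genes appear smaller, the median difference over the 7 genes was -2.14, against -0.34 over the 2999 genes. Scaling between libraries moved the median of all genes, to -0.15 under median-ratio, -0.21 under quantile and -0.24 under equal-sum scaling, and the median of the 7 genes was -1.94 with median-ratio scaling. By mean level the order was Hp, Lrg1, Orm1, Steap4 and Orm3 in both groups, followed by Orm2 and S100a8 in fasted tissue and by S100a8 and Orm2 in fed tissue. Single values of the neighbours Orm1 and Steap4, and of S100a8 and Orm2, overlapped in both groups, and those of Lrg1 and Orm1 overlapped in fed tissue. In bulk tissue, fewer cells of a type and less RNA per cell cannot be told apart.

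**Figure D1:**
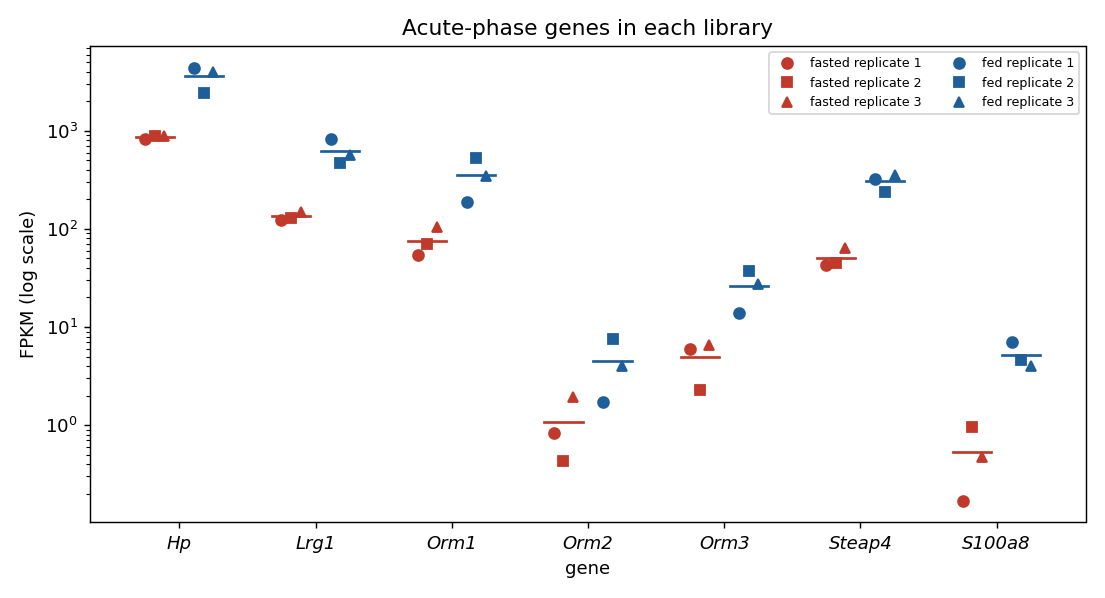
FPKM of the 7 acute-phase genes in each of the 6 libraries, on a log scale, with fasted libraries left of fed libraries for each gene and a line at the mean of each group. Fasted and fed points are separate for every gene except Orm2, where the highest fasted library (1.94 FPKM) lies above the lowest fed library (1.72 FPKM).

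Hp (chromosome 8, minus strand, 109575128 to 109579172, GRCm38) had the highest level of the 7. It measured 829, 892 and 876 FPKM in the fasted libraries, against 4414, 2456 and 3990 FPKM in the fed libraries. The fasted mice lay within a narrow band and the fed mice were spread widely above it. The means were 866 ± 32.9 FPKM in fasted tissue and 3620 ± 1030 FPKM in fed tissue (SD, n = 3 each), a ratio of 0.239 and a log2 difference of -2.02 ± 0.22 (SE). By mean level, Hp ranked 34 among the 3162 genes held in fasted tissue and 3 in fed tissue. It made up 72.9% to 78.4% of the summed FPKM of the 7 genes in the fasted libraries and 65.6% to 76.6% in the fed libraries, so it dominated the set in both groups.

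Lrg1 (chromosome 17, minus strand, 56119678 to 56122001) measured 124, 129 and 149 FPKM in the fasted libraries, against 820, 467 and 572 FPKM in the fed libraries. The groups did not overlap, and fed replicate 1 was the highest and fed replicate 2 the lowest of the fed mice, as they were for Hp. The log2 difference was -2.17 ± 0.21 (SE), with means of 134 ± 13 FPKM in fasted and 620 ± 181 FPKM in fed tissue. Of all pairs among the 7, Lrg1 and Hp were the closest in profile over the 6 libraries, with a root mean square difference of 0.18 on the log2 scale after each gene was set to its fed mean. The ratio of Lrg1 to Hp was 0.155 ± 0.013 in fasted tissue and 0.173 ± 0.026 in fed tissue (mean ± SD, n = 3 each), a difference within the spread of the fed mice.

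Steap4 (chromosome 5, plus strand, 7960457 to 7982213) had the lowest log2 difference of the 7, -2.57 ± 0.21 (SE). It measured 42.8, 44.6 and 64.1 FPKM in the fasted libraries, against 320, 239 and 355 FPKM in the fed libraries. The highest fasted library, replicate 3, was far below the lowest fed library, replicate 2. The ratio of Steap4 to Hp was 0.0583 ± 0.0129 in fasted and 0.0862 ± 0.0127 in fed tissue (mean ± SD, n = 3 each). One fasted library, replicate 3 at 0.0732, overlapped the fed libraries in this ratio, the lowest of which was 0.0725. The STAT and C/EBP matches shown above lie in the promoter of this gene.

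Among the 3 Orm genes Orm1 carried nearly all of the signal. It measured 54.4, 69.5 and 103 FPKM in the fasted libraries, against 190, 530 and 346 FPKM in the fed libraries. Both groups were spread widely but did not overlap. The means were 75.8 ± 25.1 FPKM in fasted and 355 ± 170 FPKM in fed tissue, a log2 difference of -2.14 ± 0.38 (SE). Orm3 measured 5.90, 2.30 and 6.61 FPKM in the fasted libraries, against 13.96, 37.05 and 27.17 FPKM in the fed libraries, with no overlap and a log2 difference of -2.18 ± 0.41 (SE). Orm2 was the lowest of the copies, with 0.84, 0.43 and 1.94 FPKM in the fasted libraries and 1.72, 7.61 and 4.03 FPKM in the fed libraries. Its groups overlapped, since fasted replicate 3 exceeded fed replicate 1. The log2 difference of Orm2 was -1.31 ± 0.43 (SE), and -0.90 without fed replicate 2.

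The shares of the copies in the Orm signal differed between the groups by less than the spread of the fasted mice. Orm1 gave 92.5% ± 3.63 of the summed Orm FPKM in fasted tissue and 92.1% ± 0.331 in fed tissue, Orm3 gave 6.25% ± 3.25 and 6.82% ± 0.376, and Orm2 gave 1.23% ± 0.582 and 1.08% ± 0.243 (fasted, then fed; SD, n = 3 each). The fed mice differed in their summed Orm level, at 205, 575 and 377 FPKM, while the shares of the copies stayed within 1 percentage point of each other. The fasted shares were looser, with Orm3 at 9.65%, 3.18% and 5.90% in the fasted libraries. Because reads of close copies are divided by estimation, these shares cannot be taken as exact.

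S100a8 (chromosome 3, plus strand, 90668978 to 90670035) was a low-level gene with the lowest ratio of means of the 7, 0.102. It measured 0.17, 0.95 and 0.47 FPKM in the fasted libraries, against 6.98, 4.62 and 3.97 FPKM in the fed libraries. The highest fasted library, replicate 2, was far below the lowest fed library, replicate 3. The log2 difference was -2.02 ± 0.25 (SE) with a pseudocount of 1 FPKM and -3.24 with a pseudocount of 0.1 FPKM, so its size depends on the pseudocount, and its values rest on an unknown number of reads. Of 24 neutrophil genes listed, S100a8 and Elane, the neutrophil elastase gene, were held. Elane measured 8.56, 8.86 and 7.27 FPKM in the fasted libraries, against 2.69, 1.56 and 3.00 FPKM in the fed libraries, and was higher in fasted tissue (log2 difference 1.46 ± 0.20 SE, limma adjusted p = 0.00152). The other neutrophil genes listed, among them S100a9, were not analysed here, and whether neutrophil content differed between the groups was not tested.

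The order of the fed mice in the Orm genes differed from that in each of the other genes, which shared no single order. The Orm genes, as close copies, are not separate cases. In fed tissue Orm1, Orm2 and Orm3 were highest in replicate 2 and lowest in replicate 1, whereas Hp, Lrg1 and S100a8 were highest in replicate 1, and Hp, Lrg1 and Steap4 were lowest in replicate 2. The ratio of Orm1 to Hp was 0.0429, 0.216 and 0.0868 in the fed libraries, a wider span than the 0.0656, 0.0779 and 0.118 of the fasted libraries, which lay inside it. Of all 2999 genes, 44.8% had their top fed value in replicate 2 and 33.9% in replicate 1. The coefficient of variation of the fed values had a median of 30.5% over the 7 genes, against 13.8% over all 2999 genes, and in fasted tissue these medians were 33.2% and 14.03%. Among the fasted mice Hp, at 3.80%, and Lrg1, at 9.70%, varied less than the median gene. Among the fasted mice Orm1 was highest in replicate 3 and lowest in replicate 1, as Lrg1 and Steap4 were, and S100a8 varied most, at 74.2%. The source of these differences between mice was not tested.

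**Figure D2:**
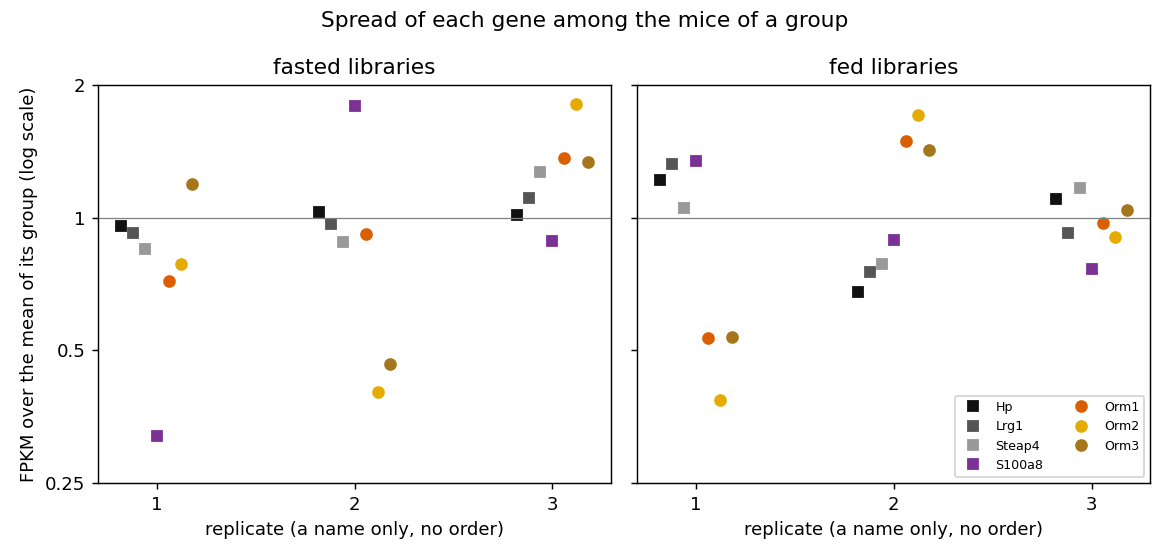
Each gene's FPKM in a library divided by the mean of its group, on a log scale, for fasted libraries on the left and fed libraries on the right, with circles for the Orm genes and squares for the others. In fed replicate 1 the Orm genes lie at 0.386 to 0.536 of their mean while Hp, Lrg1 and S100a8 lie at 1.22 to 1.34.

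Other acute-phase genes were lower in fasted tissue as well. Of 50 further acute-phase genes listed, 10 were held and 9 were tested, and all 9 of these fell, where 49.4% of the 2999 tested genes were called lower and 41.1% higher (limma on log2(FPKM + 1), Benjamini-Hochberg adjusted p under 0.05). Their median log2 difference was -1.37. The list joins genes that rise in an acute-phase response with genes that fall in it, such as Alb and Rbp4. The count of falls and this median therefore give no direction of that response. Lbp, encoding the lipopolysaccharide-binding protein, measured 20.5, 22.9 and 25.0 FPKM in fasted and 55.9, 170 and 110 FPKM in fed libraries (log2 difference -2.11 ± 0.35 SE, limma adjusted p = 0.00287). Serpina3n, a serine protease inhibitor gene, averaged 182 ± 56.4 FPKM in fasted and 521 ± 106 FPKM in fed tissue (-1.54 ± 0.24), and its relative Serpina3c averaged 62.2 ± 21.3 and 211 ± 31.8 FPKM (fasted, then fed; -1.79 ± 0.24). Serpina3 genes are a family of close copies, so their values are uncertain. Cfb, complement factor B, fell by 1.37 ± 0.23 on the log2 scale, the complement component gene C4b fell by 0.84 ± 0.26, and Rbp4, the retinol carrier gene, fell by 0.79 ± 0.26.

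With every gene not held given the largest possible p, over the 22028 protein-coding genes of the annotation, 4 of these 9 falls passed, namely Lbp, Serpina3c, Serpina3n and Cfb. Without fasted replicate 1, 5 of the 9 passed. With median-ratio scaling 6 of the 9 passed, and C4b, Rbp4 and Serpina3i missed the threshold, C4b also with quantile scaling. Serpina3i, named after its values were seen, had overlapping groups, with 0.42, 1.02 and 1.17 FPKM in fasted and 7.15, 0.99 and 7.96 FPKM in fed libraries, and its call was lost in 7 alternatives. Serpina1a, also named after its values were seen, averaged 0.723 FPKM in fasted and 2.51 FPKM in fed tissue. Serpina3i averaged 0.87 and 5.37 FPKM (fasted, then fed). Both passed the filter of a mean of 1 FPKM only through fed tissue, so neither could have been counted as a rise. Saa3, Lcn2 and C3, which adipose tissue is also known to express, were not analysed here. Since nearly every gene held separates the groups, the direction in these counts is not independent evidence.

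**Figure D3:**
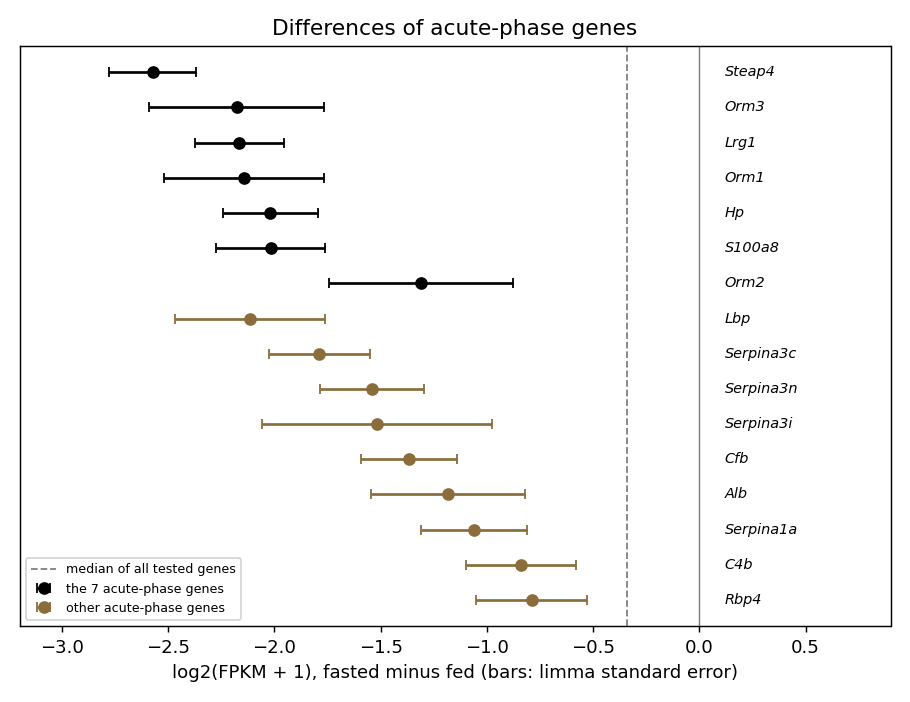
Difference in log2(FPKM + 1), fasted minus fed, for the 7 acute-phase genes (black) and for the 9 other tested acute-phase genes (brown), with limma standard errors and a dashed line at the median of all tested genes (-0.34). The black points, of genes chosen with this contrast in view, run from -2.57 for Steap4 to -1.31 for Orm2. The brown points run from -2.11 for Lbp to -0.79 for Rbp4. All 9 brown genes were called lower, as 49.4% of the 2999 tested genes were.

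Of 40 genes of the interleukin-6, STAT3 and C/EBP pathway listed, 10 were held and tested, of which 6 fell, 3 rose and 1 did not pass, beside the 49.4% of all tested genes called lower and the 41.1% called higher. With so many genes called either way, the counts of this and the next lists are descriptions and show nothing particular to a pathway. Cebpa, encoding the C/EBP factor of mature adipocytes, was 354 ± 45.9 FPKM in fasted and 454 ± 45.3 FPKM in fed tissue (-0.36 ± 0.14, limma adjusted p = 0.0428), with overlapping groups and a call lost with each of the 3 scalings. The tyrosine phosphatase gene Ptpn11 fell by 0.74 ± 0.12, and Cish, a feedback inhibitor induced by STAT5, fell by 1.89 ± 0.39 on the log2 scale. The kinase gene Pim3 rose (1.0 ± 0.19). Osmr, the oncostatin M receptor gene, was 14.04 ± 0.91 FPKM in fasted and 16.9 ± 0.21 FPKM in fed tissue and did not pass (limma adjusted p = 0.0645). Only 2 of the 6 falls, of Cish and Ptpn11, passed with median-ratio scaling. Il6, Il6ra, Stat3, Socs3, Cebpb and Cebpd were not analysed here.

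In the interleukin-1, TNF and NF-kappa B list 9 of 48 genes were held and tested, of which 5 rose, 3 fell and 1 did not pass. These counts stand beside 41.1% of the 2999 tested genes called higher and 49.4% called lower. Nfkbia, the NF-kappa B inhibitor gene that NF-kappa B and glucocorticoids induce, measured 140, 137 and 123 FPKM in fasted and 53.7, 53.9 and 70.6 FPKM in fed libraries (1.17 ± 0.14, limma adjusted p = 0.00116). The adaptor gene Myd88 (0.67 ± 0.12), the inhibitor gene Tnip2 (0.62 ± 0.16) and the adhesion genes Icam1 (0.66 ± 0.15) and Vcam1 (1.01 ± 0.22) rose. Il1r1, an interleukin-1 receptor gene, fell by 0.62 ± 0.25 with overlapping groups, and this call was lost with each of the 3 scalings. The chemokine gene Ccl2 and the NF-kappa B inhibitor gene Tnfaip3, named after their values were seen, fell by 1.41 ± 0.24 and fell by 0.79 ± 0.21.

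Of 22 genes of glucocorticoid and insulin input listed, 8 were held and tested, of which 7 rose and 1 fell. Of all 2999 tested genes, 41.1% were called higher and 49.4% lower. Sgk1, a glucocorticoid-induced kinase gene, averaged 117 ± 18.2 FPKM in fasted and 40.7 ± 16.5 FPKM in fed tissue (1.59 ± 0.31), and the clock gene Per1 averaged 48.2 ± 8.63 and 23.8 ± 1.86 FPKM (fasted, then fed; 0.98 ± 0.15). The receptor and adaptor genes of insulin signalling Insr (0.69 ± 0.14) and Irs2 (0.72 ± 0.15) rose, as did Igf1r (0.64 ± 0.19). Fkbp4, a chaperone of steroid receptors, fell by 0.66 ± 0.15. Ppara (0.70 ± 0.15) and Ppargc1a (0.90 ± 0.24), named after their values were seen, were the other rises. Ppargc1a averaged 2.33 FPKM in fasted and 0.767 FPKM in fed tissue. It passed the filter of a mean of 1 FPKM only through fasted tissue.

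Beside Hp and Steap4, 10 of 34 genes of haem and iron handling listed were held and tested, of which 7 fell and 3 rose, where 49.4% of all tested genes were called lower and 41.1% higher. Hfe, the haemochromatosis gene, averaged 17.7 ± 2.75 FPKM in fasted and 42.0 ± 20.6 FPKM in fed tissue (-1.11 ± 0.30). Heph, a ferroxidase gene, fell by 0.65 ± 0.13 and Aco1, an iron-regulated aconitase gene, fell by 0.79 ± 0.17, while Bmp6, which signals iron load, rose (0.52 ± 0.13), as did Pcbp2 (0.79 ± 0.15). Blvra, biliverdin reductase, fell by 0.49 ± 0.20 with overlapping groups, a call lost with each of the 3 scalings. Steap3, the other gene of the Steap family held, and Slc40a1, the iron exporter gene, were named after their values were seen. Steap3 averaged 10.8 ± 2.02 FPKM in fasted and 24.3 ± 4.83 FPKM in fed tissue (-1.09 ± 0.19), and Slc40a1 rose (0.98 ± 0.19).

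Transcripts of red cells were higher in fasted tissue, where Hp was lower. All 5 erythroid genes held of 10 listed rose, where 41.1% of the 2999 tested genes were called higher. The summed FPKM of the 5 was 7204, 3955 and 10136 in the fasted libraries, against 1892, 2800 and 2558 in the fed libraries. Hba-a1 averaged 2590 ± 1142 FPKM in fasted and 861 ± 180 FPKM in fed tissue (1.51 ± 0.33), Hbb-bs 2306 ± 987 and 795 ± 127 FPKM (fasted, then fed; 1.45 ± 0.32), and the haem synthesis gene Alas2 15.5 ± 8.08 and 6.23 ± 0.852 FPKM (1.05 ± 0.37). The call of Alas2 was lost without fasted replicate 1 or 3, without any 1 of the fed replicates, and when adjusted over all protein-coding genes. The globin genes have near-identical copies, so their values are uncertain and their rises are not separate cases. Of 20 hepatocyte genes 5 were held, with a summed FPKM of 10.97 to 23.4 in the fasted libraries and 8.91 to 19.4 in the fed libraries, and 2 rose while 2 fell. Alb, the albumin gene, was 3.42 ± 1.05 FPKM in fasted and 9.64 ± 4.49 FPKM in fed tissue, far under Hp. The 2 rises were Apoa1, at 6.06 and 1.14 FPKM, and Hpd, at 6.59 and 1.41 FPKM (means, fasted, then fed). Serpina1a, the other fall, passed the filter of a mean of 1 FPKM only through fed tissue. Of the 2999 tested genes, 41.1% were called higher and 49.4% lower. The part of blood or other cells in the values of the 7 genes was not tested.

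In the S100 family and its partners, 7 of 15 genes were held, S100a8 among them. The other 6 were tested. Of these, 3 fell, 1 rose and 2 did not pass, where 49.4% of the 2999 tested genes were called lower and 41.1% higher. S100a11 was the most abundant, at 661 ± 12.4 FPKM in fasted and 1585 ± 234 FPKM in fed tissue (-1.25 ± 0.14, limma adjusted p = 0.000946). S100a10 fell by 0.74 ± 0.16, and S100a4 fell by 0.60 ± 0.21 with overlapping groups, a call lost with each of the 3 scalings. Ager, encoding a receptor for S100 proteins, rose (1.19 ± 0.38), with 11.4, 3.58 and 3.50 FPKM in fasted and 2.06, 1.95 and 1.40 FPKM in fed libraries, and the call was lost without fed replicate 3. S100a16 was 68.1 ± 14.6 FPKM in fasted and 98.8 ± 31.1 FPKM in fed tissue, and Bsg, another S100 receptor gene, 306 ± 24.5 and 374 ± 38.9 FPKM (fasted, then fed).

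**Figure D4:**
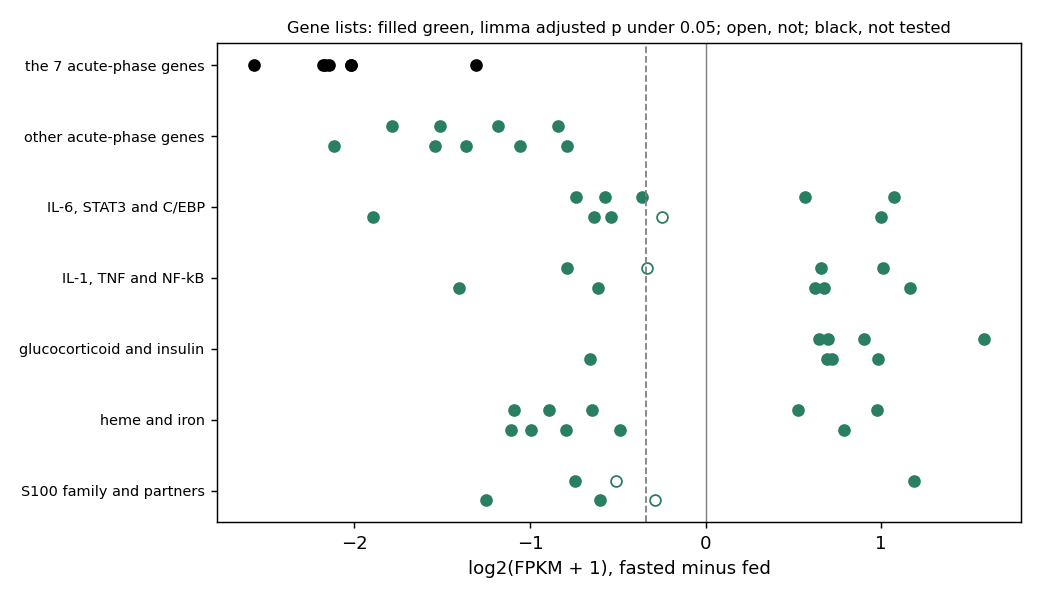
Difference in log2(FPKM + 1), fasted minus fed, for the 7 acute-phase genes (black, not tested) and for the tested genes of 6 lists (green, filled where the limma adjusted p was under 0.05), with a dashed line at the median of all tested genes. All 9 other acute-phase genes lie left of 0, and 7 of the 8 glucocorticoid and insulin genes lie right of it. Of the 2999 tested genes, 49.4% were called lower and 41.1% higher, so these counts show nothing particular to a pathway.

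The genes nearest to the 7 in profile were taken from 2942 candidates, by the root mean square difference over the 6 libraries in log2(FPKM + 1) after each gene was set to its fed mean. Among the 5 nearest to the median profile of the 7 were the caveolin gene Cav1 (0.20), the glycogen phosphorylase gene Pygb (0.24), the tubulin gene Tuba1b (0.26) and the mitochondrial carrier gene Slc25a35 (0.28). Cav1 averaged 493 ± 39.6 FPKM in fasted and 1941 ± 118 FPKM in fed tissue (SD, n = 3 each). The nearest single gene to Orm1 was Lbp (0.19), another acute-phase gene, to Orm2 Wscd2 (0.15), to Orm3 Trp53inp2 (0.32), and to Steap4 the transporter gene Slc6a13 (0.27). Wscd2, at a mean of 0.413 FPKM in fasted and 2.77 FPKM in fed tissue, passed the filter only through fed tissue. On this scale differences of such low genes appear smaller, so the distance of Wscd2 to Orm2 may overstate their likeness. Within the 7, Orm1 and Orm3 differed by 0.41 and Orm1 and Hp by 0.72.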

How the data were processed

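RNA of epididymal fat from 3 fasted and 3 fed mice was measured, and libraries were grouped by the treatment label. Replicate numbers follow accession order and pair no mice, and as the design text calls the replicates biological, the spread is that between mice. Per the file headers, the deposited values are FPKM, with at most 2 decimals. RSEM and the builds mm10 and GRCm38.p6 are named per the submitters' processing notes. The RSEM version, aligner and strand setting are not stated there, and depth is unknown, so no counting interval is given.

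Symbols and coordinates come from the GENCODE annotation of GRCm38, which matched 3161 of 3162 identifiers. After a filter on the mean (1 FPKM or more, which kept 2999 genes and left out 163), genes were fitted with limma 3.58.1 in R 4.3.3 (lmFit, eBayes with a variance trend) on log2(FPKM + 1), two-sided, with Benjamini-Hochberg adjustment over all 2999 and a threshold of 0.05. The step was tested on simulated data in which most genes did not differ between the groups. Most genes held here were called, so that test does not cover the setting of these data. Sequences were aligned with Biopython 1.88 in Python 3.11.15. The 7 genes and the gene lists were chosen with earlier results of these data known. Named list genes are the up to 6 held members with the highest mean FPKM, and others are named as chosen after their values were seen. Some genes that this rule names are not reported here. Alternatives were a pseudocount of 0.1, no filter, 3 scalings, no variance trend, adjustment over all protein-coding genes and leaving out each library. Cell type lists not described above held 8 fibroblast genes (4 rose, 4 fell, of which the falls of Col1a1 and Col1a2 were lost with each of the 3 scalings and that of Dpt with median-ratio and quantile scaling), 1 macrophage gene (Itgam, which fell by 1.03 on the log2 scale), 1 lymphocyte gene and 1 epididymal gene (neither tested) and 0 mesothelial genes.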

Additional observations from a re-analysis of the deposited data

How the results depend on the processing

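Each of the 7 genes was lower in fasted tissue under all 10 alternatives tried for it, 4 of scaling or pseudocount and 6 that left out a library, with log2 differences from -2.28 to -1.81 for Hp, -2.35 to -1.94 for Lrg1, -2.75 to -2.37 for Steap4, -2.53 to -1.79 for Orm1, -2.55 to -1.80 for Orm3, -1.94 to -0.90 for Orm2 and -3.24 to -1.82 for S100a8. The 7 were chosen with this contrast in view. In 6 of them no fasted value reached a fed value, so leaving out a library or changing the pseudocount could not turn the direction. For these 6, such alternatives show only how far the size of the difference moves. The median of the 7 was -1.94 with median-ratio scaling, and -2.24 to -1.94 without 1 library. Without 1 library, 1040 to 1300 genes were called lower and 1118 to 1221 higher. With median-ratio scaling 787 genes were called lower. Adjusted over all protein-coding genes, 552 genes were called higher and 495 lower, and the calls were 4 falls of the other acute-phase list, 1 rise and 2 falls of the interleukin-6 list, 3 rises and 1 fall of the interleukin-1 list, 0 falls of the glucocorticoid and insulin list by limma (1 at an unadjusted p under 0.05) and 0 rises of the S100 list by limma (1 at an unadjusted p under 0.05). Median-ratio scaling left 2 falls of the interleukin-6 list. Without 1 library, 5 to 8 falls of the other acute-phase list and 0 to 1 rises of the S100 list passed by limma, the 0 without fed replicate 3, where 1 rise had an unadjusted p under 0.05. Other calls of the 6 lists stayed within 1.5 times of those reported. The cause of these shifts was not tested. No paired analysis was possible because the labels give no number shared by fasted and fed mice. Depth is unknown, and the fasted values of S100a8 and 2 of the 3 fasted values of Orm2 lie under 1 FPKM.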

Other observations

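Among the 9 other tested acute-phase genes, fed replicate 1 was the lowest fed library for 8, as it was for Orm1, Orm2 and Orm3, where 34.9% of all 2999 genes had their lowest fed value there. Rbp4 measured 428, 921 and 614 FPKM and Alb 4.47, 12.6 and 11.9 FPKM in the fed libraries, an order that Lbp, Cfb and the Orm genes shared. The other 5 of the 9, namely C4b, Serpina1a, Serpina3c, Serpina3i and Serpina3n, were highest in fed replicate 3, as 21.2% of all 2999 genes were. In fasted tissue, replicate 3 held the highest value of 5 of the 7 genes and of 7 of the 9 others, against 24.9% of all 2999 genes. The adipocyte genes Plin1, at 286, 260 and 479 FPKM, and Aoc3, at 194, 157 and 288 FPKM in the fasted libraries, were also highest there. So were the adipocyte markers Slc2a4, Retn, Lep and Tshr. Mrap, the remaining marker held, was highest in fasted replicate 2, at 133, 168 and 143 FPKM. These patterns were chosen after the values were seen, and their source was not tested. The Orm genes are close copies, as are the Serpina3 genes, so they are not separate cases in these counts.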
